A study of Mus musculus with 115 samples.

Results

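The cytoplasmic ribosomal protein genes were followed across the cells of the mouse ovary in 89 rows of a table of 24484 gene rows. A row was taken when its symbol began with Rpl or Rps and a digit, or was Rplp0, Rplp1, Rplp2 or Rpsa, and pseudogene symbols with "-ps" and the Rps6k kinases were left out. Of the 89 genes, 54 carry symbols of the large 60S subunit and 35 symbols of the small 40S subunit. One of them, Rps19bp1, met the symbol rule but encodes a protein that binds Rps19 and is not a subunit of the ribosome. The cells came from wild type mice of a C57BL/6-129Sv background and from db/db and ob/ob mice, both labelled C57BL/6. The db allele alters Lepr, the leptin receptor, the ob allele alters Lep, the hormone itself, and both kinds of mouse become obese. Oocytes and somatic cells were picked by hand from the ovaries, and each library pooled up to 96 cells, told apart by cell barcodes from a common set of 96, each of which more than 1 library used. Somatic cells made up 31 libraries from wild type, 30 from db/db and 31 from ob/ob mice, and oocytes 12, 4 and 4. The text of the series names a high-fat diet, but no label gives one and diet was not compared. The labels name no animal, so a p-value here reflects how libraries vary, and part of that may be technical. Wild type differed from both mutants also in strain and in library number, with wild type libraries numbered 1 to 59 and mutant libraries 82 to 153. Genotype, strain and library order therefore cannot be told apart in a comparison with wild type, whereas db/db and ob/ob share a strain label and alternate in blocks of library numbers.

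A ribosome holds close to 1 copy of each of its proteins, and cells make these proteins in step by controlling the translation of their mRNAs through a pyrimidine-rich start called the 5′ TOP motif, on which mTOR and Larp1 act. Some ribosomal protein genes have a second, autosomal or retroposed copy that is best known from germ cells. A growing oocyte makes and stores ribosomes, and at the end of growth it stops transcription and lives on stored mRNA, while granulosa cells divide, the luteal cells that arise from them make steroid hormones, and theca and stroma cells surround the follicles.

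Counts were summed over the cells of a library, and levels are given in CPM, a gene's UMIs relative to all gene UMIs of the library. Levels beside a test are after TMM scaling between libraries. Marker sums, the limit of a count of 0 and member levels compared between cell classes were not scaled. Nor were the levels of BC004004, Rps15a and Rpl21 given for whole somatic libraries and for blocks of library numbers. The totals were 2017017 to 22488226 UMIs in the 92 somatic libraries and 2070988 to 21249964 in the 20 oocyte libraries. Of the oocyte libraries 6 stood apart, which were replicate 2 of ob/ob and 5 of wild type (replicates 6 to 10). None of their cells fell in the 2 clusters that held most cells of the other 14 oocyte libraries. Mitochondrial rows took 4.831% to 17.56% of their UMIs, against 1.251% to 5.171% in the other 14. Their cells had a median of 3328 to 5430 genes, within the 2887 to 8333 of the other 14. The 14 oocyte markers, zona pellucida and maternal effect genes among them, summed to 16000.7 to 25568.2 CPM in the 6 and to 22261.5 to 39373 CPM in the other 14. Results for oocytes are given with and without the 6. Among the somatic libraries 5 held the oocyte markers at 5647 to 21272 CPM, namely 2 of wild type, 2 of db/db and 1 of ob/ob, and the other 87 at no more than 1156. Granulosa markers summed to 331.9 to 972 CPM in the oocyte libraries, and no marker of that list was at 0 in every one of them.

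Most of the 89 rows were well covered. Rpl26 and Rps27rt were listed at 0 in all libraries, which allows up to 0.00252 CPM over all 1192020647 UMIs, for counting error only, and only if reads of these genes could be counted there. Rpl30 had 36 UMIs, Rpl3l 201, Rps27 224, Rpl34 1068 and Rpl10l 1329 over all libraries. Near-identical copies limit these rows and others: 17 members had another row at 95% identity or more over at least 150 transcript bases, and the rule by which the counting split such reads is not stated in the sources used here. The copies included Gm15772 for Rpl26, Gm12191 for Rpl30, Rpl34-ps1 for Rpl34, Rps27rt for Rps27 and Rpl37rt for Rpl37. Values of these pairs are uncertain for that reason.

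Ribosomal protein genes took a far larger part of the UMIs in somatic cells than in oocytes. Their share was 13.01% ± 3.014 (SD, n = 31) in wild type, 11.96% ± 2.749 (n = 30) in db/db and 11.68% ± 2.532 (n = 31) in ob/ob somatic libraries, with single libraries from 5.789% to 17.13%. In oocytes it was 1.947% ± 1.221 (n = 12) in wild type, 2.629% ± 0.3239 (n = 4) in db/db and 2.768% ± 1.312 (n = 4) in ob/ob libraries. The 6 libraries that stood apart held the lowest shares, 0.4486% to 0.8072%, and the other 14 held 2.276% to 3.587%. No oocyte library reached the lowest somatic one. Without the 6, the share was 2.913% ± 0.342 (n = 7) in wild type and 3.421% ± 0.1433 (n = 3) in ob/ob. These are shares and not amounts per cell. Per UMI of the added ERCC spike-in, the members had 4.446 to 27.49 UMIs in the 14 oocyte libraries and 1.253 to 1.897 in the 6, against medians of 0.2568 in wild type, 0.5794 in db/db and 0.433 in ob/ob somatic libraries. Single somatic libraries of wild type ranged from 0.0354 to 70.67 on that scale, so the spike-in gave a coarse measure there, and the labels do not state the amount added. In summed libraries fewer cells of a type and less RNA per cell cannot be told apart.

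**Figure D1:**
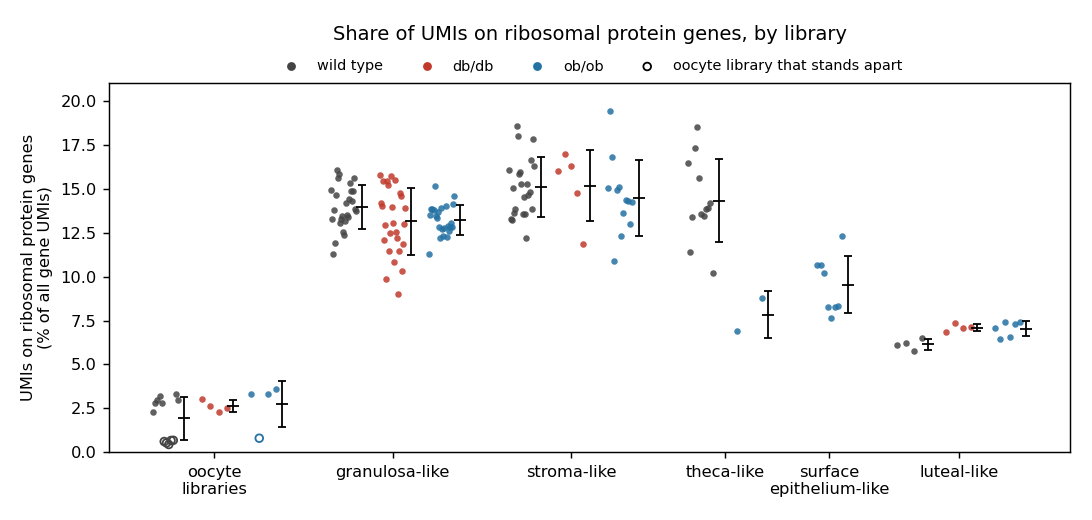
Percent of all gene UMIs on the 89 ribosomal protein rows (vertical axis, linear from 0), 1 point a library, for the oocyte libraries and for each cell class within somatic libraries, coloured by genotype, with the mean and SD beside each group and open circles for the oocyte libraries that stood apart. The 20 oocyte libraries lie between 0.4486% and 3.587%, and the luteal-like cells of the 3 genotypes have means of 6.148%, 7.104% and 7.041%.

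Within somatic libraries the cells were grouped into classes by marker genes, with the members left out of the clustering. Cells that got no class made up 16.35% of the somatic cells in wild type, 25.42% in db/db and 34.27% in ob/ob. They enter none of the class values or class comparisons. The share stood at 13.97% ± 1.234 (SD, n = 26) in wild type granulosa-like cells, 15.09% ± 1.695 (n = 22) in stroma-like cells, 14.32% ± 2.352 (n = 12) in theca-like cells and 6.148% ± 0.312 (n = 4) in luteal-like cells. Luteal-like cells were also low in the mutants, at 7.104% ± 0.212 (n = 4) in db/db and 7.041% ± 0.434 (n = 6) in ob/ob, where granulosa-like cells held 13.14% ± 1.931 (n = 26) and 13.24% ± 0.859 (n = 24). In ob/ob the share was also low in theca-like cells, at 7.843% ± 1.356 (n = 2), from 6 cells in each of the 2 libraries, where 78 of 79 members had a lower mean than in granulosa-like cells (median log2 ratio -0.75). Surface epithelium-like cells of ob/ob mice, 9.541% ± 1.639 (n = 8), lay between these and granulosa-like cells. These are descriptions of classes made from the same cells and were not tested. The lower luteal share was spread over the family: 78 of 79 members had a lower mean in luteal-like than in granulosa-like cells of wild type, with a median log2 ratio of -1.2, and 79 of 79 had in db/db (-0.87) and ob/ob (-0.91). The exception in wild type was Rpl7l1, a nucleolar relative of Rpl7, at 151.6 ± 11.07 CPM (n = 4) against 110 ± 49.52 CPM (n = 26). Rpl27a differed most, at 102.2 ± 20.92 CPM in luteal-like and 380.9 ± 84.59 CPM in granulosa-like cells. All luteal-like cells came from 1 cluster. Luteal markers also led in clusters 19, 20 and 21, of 92, 293 and 113 cells, but these got no class. Of the 293 cells 198 were of wild type.

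Rpl41, the smallest ribosomal protein, took 5.585% ± 1.232 (SD, n = 26) of the members' UMIs in wild type granulosa-like, 5.524% ± 0.4239 (n = 4) in luteal-like and 5.429% ± 1.135 (n = 22) in stroma-like cells. The 60S symbols held 57.99% ± 0.8887 (n = 31) of the members' UMIs in wild type somatic libraries, 58.79% ± 1.152 (n = 30) in db/db and 57.99% ± 0.9693 (n = 31) in ob/ob, and 58.39% ± 0.7186 (n = 7) in wild type oocytes without the 6. In the 5 wild type oocyte libraries that stood apart the 60S part was 30.53% ± 1.757. In each of these 5 the highest member was Rps27l, a symbol of the small subunit. It stood there at 2170 to 6272 CPM after TMM scaling, against 917.3 to 1550 CPM in the other 7. The next highest, Rps15a, was at 364.1 to 1422 CPM in the 5. The 60S part without Rps27l was not calculated, so 30.53% cannot be read as a shift between whole subunits.

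Between oocyte and somatic libraries, which the cell type label defines, nearly every member differed. In wild type 78 of 86 tested members fell in oocytes and 6 rose, against 36.4% and 34.5% of all 16900 genes tested (edgeR quasi-likelihood test, Benjamini-Hochberg adjusted p under 0.05). The median log2 difference, oocyte minus somatic, was -2.64 over the members and -0.2 over all genes. In db/db 70 members fell and 6 rose (all genes 22.2% and 25.8%), with a median of -2.19 beside -0.25, and in ob/ob 67 fell and 3 rose (23.2% and 27.3%), with -1.99 beside -0.34. Of the 3 members not tested, Rpl26 and Rps27rt were at 0 and Rpl30 had too few UMIs. Without the 6 libraries the counts were 75 lower and 5 higher in wild type (29.8% and 31.2% of 17239 genes; median -2.07), 73 and 6 in db/db (22.7% and 25.5%; -2.21), and 64 and 6 in ob/ob (19% and 24.6%; -1.68). Without the 5 somatic libraries that held oocyte markers, an alternative chosen after seeing the data, 78 fell and 6 rose in wild type, 70 and 5 in db/db and 67 and 3 in ob/ob. Both subunits took part: the median in wild type was -2.67 for the 60S and -2.59 for the 40S symbols.

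**Figure D2:**
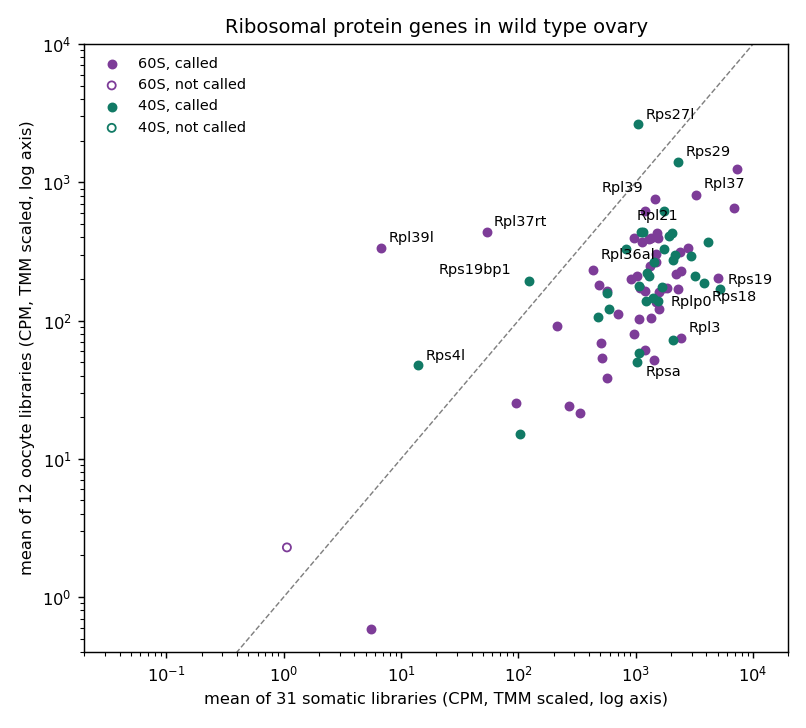
Mean level of each member in the 12 oocyte libraries (vertical axis, CPM, log scale) against its mean in the 31 somatic libraries (horizontal axis, CPM, log scale) of wild type mice, coloured by subunit, filled where the test passed, with a dashed line of equal levels. Most members lie below the line. Of those that passed as higher in oocytes, Rpl39l, Rpl37rt, Rps27l, Rps4l and Rps19bp1 lie above it, while Rpl10l, at a somatic mean of 0.01493 CPM, lies beyond the horizontal axis.

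Rpl39l rose in oocytes of all 3 genotypes. It is the autosomal relative of X-linked Rpl39, whose protein lines the tunnel through which the new peptide leaves the 60S subunit. In the 7 wild type oocyte libraries that did not stand apart it stood at 379.1, 549.8, 374.2, 415.6, 536.7, 771.1 and 493.3 CPM, and in the other 5 at 133.7, 113.5, 51.34, 110.7 and 107.1 CPM. The 31 wild type somatic libraries ran from 0 to 107 CPM with a median of 0.4361. The 7 lay above every somatic library, and of the other 5 the one at 51.34 CPM lay within the somatic range and the rest at or just above its top. The log2 difference was 5.63 (SE 0.91; adjusted p = 3.63e-08, edgeR), and 6.18 without the 6. In db/db oocytes it stood at 400.2, 473, 407.4 and 271.2 CPM against 11.07 ± 35.13 CPM (SD, n = 30) in somatic libraries, a log2 difference of 5.13 (SE 1.07; adjusted p = 3.257e-05, edgeR). In ob/ob oocytes it stood at 740.3, 68.69, 690.6 and 731.9 CPM, the second being the library apart, against 4.161 ± 9.104 CPM (n = 31), a log2 difference of 7.08 (SE 1.07; adjusted p = 1.314e-08, edgeR). Rpl39 itself stood at 758.2 ± 661.2 CPM (n = 12) in wild type oocytes and 1468 ± 422 CPM (n = 31) in somatic libraries.

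The other members that rose in oocytes were mostly second copies of ribosomal protein genes. Rpl37rt, a retroposed copy 99.709% identical to Rpl37 over 344 transcript bases, stood at 122.1 to 702.1 CPM in the 12 wild type oocyte libraries (median 436.9) and at 22.21 to 232.6 CPM in somatic libraries (median 40.38). The log2 difference was 3.03 (SE 0.28; adjusted p = 4.551e-18, edgeR) in wild type, 3.99 in db/db and 4.59 in ob/ob, though reads of the pair cannot be told apart over most of their length. Rps4l, a relative of Rps4x, stood at 47.31 ± 50.25 CPM (SD, n = 12) and 13.95 ± 13.57 CPM (n = 31), a log2 difference of 1.76 (SE 0.56; adjusted p = 0.003765, edgeR). It was low in the 5 wild type libraries apart, 0.1715 to 5.389 CPM, and at 22.98 to 124.7 CPM in the other 7. Rpl10l, which in male germ cells stands in for X-linked Rpl10, had 548 UMIs in the wild type oocyte libraries and 5 in the somatic ones. It stood at 0 to 9.905 CPM in wild type oocytes, and 1 ob/ob somatic library reached 21.92 CPM. Rps19bp1 stood at 192.5 ± 57.05 against 122.6 ± 51.47 CPM, a log2 difference of 0.65 (SE 0.21; adjusted p = 0.00416, edgeR).

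Rps27l, a p53-responsive relative of Rps27, was highest in the libraries that stood apart. It reached 5548, 4107, 2170, 6272 and 5256 CPM in those 5 wild type libraries and 917.3 to 1550 CPM in the other 7, while the somatic libraries held 583.3 to 1741 CPM. The log2 difference in wild type was 1.31 (SE 0.18; adjusted p = 1.742e-10, edgeR) with all libraries and 0.12 (adjusted p = 0.5726) without the 6. In db/db, where no library stood apart, it was 0.64 (adjusted p = 0.04759), a call that was lost without any 1 of the 4 oocyte libraries, and in ob/ob it was 1.27 with all libraries and 0.95 (adjusted p = 0.0005779) without the 6. In the ob/ob library that stood apart it was at 3021 CPM, against 1554, 1375 and 1734 CPM in the other 3. Its sister gene Rps27 had no UMI in the wild type oocyte libraries and 136 in the wild type somatic ones, so the pair was read almost wholly as Rps27l everywhere.

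Among members that averaged 20 CPM or more in either group, the largest falls in wild type oocytes were in Rpl3, Rps19, Rps3, Rpl9, Rpl13, Rps18 and Rpsa. Rpl3, which reaches into the peptidyl transferase centre, stood at 2.62 to 149.3 CPM in oocytes (median 94.53) and at 991.2 to 3821 CPM in somatic libraries (median 2510), with no overlap. Its log2 difference was -5.03 (SE 0.31; adjusted p = 6.646e-29, edgeR), -4.39 without the 6, -4.25 in db/db and -4.57 in ob/ob. Rps19, a 40S protein whose loss causes Diamond-Blackfan anaemia in people, stood at 2.096 to 340.5 CPM (median 137) against 2122 to 9168 CPM (median 5225). Its log2 difference was -4.95 in wild type, -3.98 in db/db and -4.44 in ob/ob. Rps3, at the mRNA entry of the 40S subunit, followed with -4.85, Rpl9 with -4.76 and Rpl13 with -4.64. Rps18 and Rpsa, the laminin receptor of the 40S subunit, both had -4.35.

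At the other end some members were close to their somatic level. Rps29, Rpl36al and Rpl39 had log2 differences of -0.72, -0.89 and -0.95 in wild type with all libraries and of -0.02, -0.18 and -0.23 without the 6, where none of the 3 passed the test. In ob/ob they had 0.9, 0.55 and 0.65 without the 6, and all 3 passed as higher in oocytes. In db/db oocytes Rps29 stood at 3177, 2760, 2934 and 1934 CPM and in ob/ob at 4011, 213.5, 3743 and 4696 CPM, where the low value is the library apart, against somatic means of 2459 ± 766.8 (SD, n = 30) and 2208 ± 784.2 CPM (n = 31). The acidic stalk, to which elongation factors dock, was uneven: Rplp0 had a log2 difference of -3.34 (SE 0.21), Rplp1 of -2.3 (SE 0.24) and Rplp2 of -0.96 (SE 0.15) in wild type, all past the threshold. Rplp2 shares 99.488% identity over 391 bases with a row named Wdr89, so its value is less certain. In ob/ob Rplp2 had -0.36 (adjusted p = 0.1741, edgeR) and Rplp0 -2.83 (adjusted p = 5.317e-12).

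The start sites of some of these genes are shown because a C followed by pyrimidines there is what lets their mRNAs be held back or translated as a group. Each window has 15 bases before and 15 from the annotated start, from RefSeq (GRCm38.p6), sense strand, with capitals marking a C followed by at least 4 C or T that begins within 5 bases of a start.
Rpl39l: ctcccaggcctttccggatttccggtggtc
Rpl39: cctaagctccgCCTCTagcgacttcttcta
Rps27l: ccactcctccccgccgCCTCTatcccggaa
Rpl10l: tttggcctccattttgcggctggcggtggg
Rpl37rt: gtcttcaggccagagcccgcacccagcagt
Rps19: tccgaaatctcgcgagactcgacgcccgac
Rps3: cttgcaagggtcgccgcgctgcgcggcgtc
Rplp2: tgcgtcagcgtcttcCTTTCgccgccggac
Rps18: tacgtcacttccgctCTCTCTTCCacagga
Rps28: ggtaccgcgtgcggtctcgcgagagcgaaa
The windows lie at chr16:10170213-10170242 (plus strand) for Rpl39l, chrX:37085208-37085237 (minus strand) for Rpl39, chr9:66946071-66946100 (plus strand) for Rps27l, chr12:66284387-66284416 (minus strand) for Rpl10l, chr5:115110254-115110283 (minus strand) for Rpl37rt, chr7:24884577-24884606 (plus strand) for Rps19, chr7:99483695-99483724 (minus strand) for Rps3, chr7:141447636-141447665 (plus strand) for Rplp2, chr17:33955651-33955680 (minus strand) for Rps18 and chr17:33824548-33824577 (minus strand) for Rps28. These letters stood at the start of 31 of the 68 members in the table (45.6%) and of 5718 of all 27025 genes (21.2%), counted on the sense strand only. Rpl39, Rps27l, Rplp2 and Rps18 hold them, and the 3 copies Rpl39l, Rpl10l and Rpl37rt do not under this rule. Just outside the 5 bases searched, however, the Rpl39l window also holds such letters. The median log2 difference in wild type was -2.54 over the 30 tested members with them and -2.62 over the 36 without. Annotated starts can differ from those used in a cell, and the match is a description.

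Within some pairs of paralogs, though not all, the UMIs were split differently in oocyte and somatic libraries. Rpl39l made up 28.53% ± 2.806 (SD, n = 7) of the UMIs of Rpl39 and Rpl39l in wild type oocytes without the libraries apart, 24.2% ± 1.856 (n = 4) in db/db and 27.45% ± 3.037 (n = 3) in ob/ob. With all libraries the means were 44.59% ± 20.84 (n = 12) in wild type and 35.21% ± 15.7 (n = 4) in ob/ob. In somatic libraries the medians were 0.03079% in wild type, 0.06265% in db/db and 0.06113% in ob/ob. Rpl39l exceeded 1% of the pair in 11 somatic libraries, which held the oocyte markers at 398 to 21270 CPM (median 1152), whereas the other 81 held them at 3.72 to 1156 CPM (median 102.9). The part of oocyte RNA in those 11 values was not tested.

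Rpl37rt made up 31.32% ± 4.419 (SD, n = 7) of its pair with Rpl37 in wild type oocytes without the libraries apart, 39.13% ± 4.367 (n = 4) in db/db and 38.54% ± 6.278 (n = 3) in ob/ob, against somatic medians of 1.429%, 1.436% and 1.497%. Rpl36al, an autosomal copy of X-linked Rpl36a, was abundant in both kinds of cell and shifted in the same direction, from somatic means of 27.79% ± 7.712 (n = 31), 33.27% ± 8.21 (n = 30) and 31.57% ± 8.592 (n = 31) to 59.39% ± 2.05 (n = 7), 65.23% ± 3.514 (n = 4) and 63.63% ± 2.338 (n = 3) in oocytes. Rpl10l reached 3.058% ± 1.198, 4.537% ± 0.8098 and 4.275% ± 1.231 of its pair with Rpl10 in the same oocyte groups. With all libraries the wild type (n = 12) and ob/ob (n = 4) oocyte means were 40.04% ± 11.55 and 43.69% ± 11.5 for Rpl37rt. They were 53.06% ± 9.862 and 60.61% ± 6.335 for Rpl36al, and 2.379% ± 2.28 and 3.207% ± 2.362 for Rpl10l. Rpl36al then went down to 37.5% in wild type oocyte libraries, within the wild type somatic range, which reached 50.8%. Rpl22l1 had lower or similar mean shares in oocytes, at 55.49% ± 3.641, 47.25% ± 4.921 and 52.96% ± 8.485 in oocytes and 63.62% ± 10.42, 54.72% ± 6.341 and 55.06% ± 7.173 in somatic libraries, and single libraries of both kinds overlapped. In the oocyte libraries that stood apart Rpl22l1 made up 0 to 14.1% of its pair in wild type and 14.71% in ob/ob. Rpl3l, the muscle copy of Rpl3, had 201 UMIs in all and none in the db/db and ob/ob oocytes. The shares are descriptions, and the test of each gene is the one given above.

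**Figure D3:**
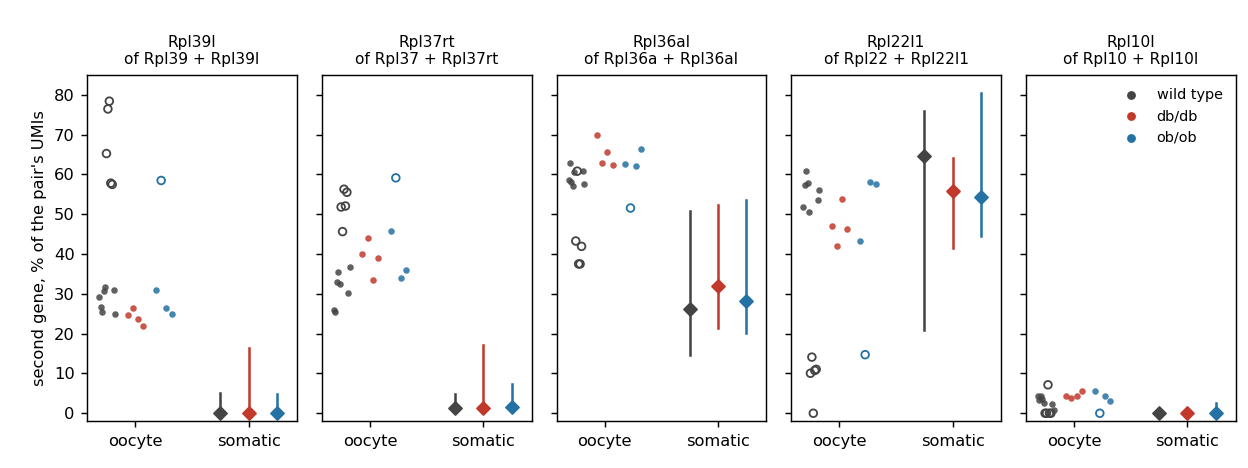
Share of a pair's UMIs on its second gene (vertical axis, percent, linear) in 5 panels for Rpl39l, Rpl37rt, Rpl36al, Rpl22l1 and Rpl10l, coloured by genotype: 1 point for each oocyte library, open where it stood apart, and a diamond at the median with a line from the lowest to the highest value for somatic libraries. For Rpl39l the somatic medians lie under 1%, and for Rpl22l1 oocyte and somatic libraries overlap.

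Other genes of translation are read here against the 36.4% of all genes that fell and the 34.5% that rose in wild type oocytes (29.8% and 31.2% without the 6 libraries that stood apart). All 7 elongation genes listed fell in wild type oocytes (median log2 difference -2.15; 6 of 7 without the 6), among them Eef1g with -4.95 and Eef2, which moves the ribosome along, with -3.54. Of 28 initiation factors 19 fell and 3 rose (median -0.91): Eif5b, which joins the subunits, had 3.16, Eif2s2 2.31 and Eif1ax 0.8. Without the 6 libraries the counts were also 19 and 3, Eif5b had 1.47, and Eif2s2, no longer among the 3, had 0.54 (adjusted p = 0.08928, edgeR). Of 29 ribosome assembly genes 18 fell and 2 rose (15 and 2 without the 6), and Fau and Rack1, ribosomal proteins outside the symbol rule, fell by 1.47 and 2.64 on the log2 scale. Among 10 genes that act on TOP mRNAs, Mtor (1.25) and Larp4 (1.86) rose, and Larp1 (-2.33) and Eif4ebp1 (-5.15) fell together with Cnbp and Rps6kb2. Without the 6 libraries 2 of these genes rose and 3 fell, and with or without them the falls were near the share of all genes. Of the 5 nascent chain chaperones Hspa14 rose (1.44) and Naca, Btf3 and Hspa8 fell, against 1 and 2 without the 6.

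In granulosa-like cells the members were compared between the 3 genotypes. Many members were slightly lower in both mutants than in wild type, and a few stood out. In db/db 29 of 81 tested members fell and 4 rose, against 4.49% and 2.45% of all 10701 genes tested, with a median log2 difference of -0.23 beside 0.01 over all genes (edgeR; 26 libraries of wild type, 26 of db/db and 24 of ob/ob). In ob/ob 16 fell and 3 rose (2.35% and 1.29%), with a median of -0.16 beside 0.02. Both comparisons share the wild type libraries. With the library number as a covariate 5 members passed in db/db, 3 of them higher, and 3 in ob/ob, all of them higher. No share of all genes is given beside these counts. Wild type somatic libraries are numbered 1 to 55 and mutant ones 82 to 153, so this covariate runs along with wild type against mutant. A call lost or kept under it therefore cannot separate genotype from library order, and strain was not in the fit. Between db/db and ob/ob 6 members fell in db/db and none rose (0.579% and 0.336%), with a median of -0.03 beside -0.02. The class drew on different clusters by genotype: the fullest one was cluster 11 in wild type (455 cells) and cluster 5 in db/db (454 cells) and ob/ob (302 cells). Without the somatic libraries that held oocyte markers, 28 fell and 4 rose in db/db, 15 fell and 3 rose in ob/ob, and 7 fell between the mutants.

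Rpl21 was the member that set db/db apart. It stood at 49.25 to 362.6 CPM (median 137.1) in db/db granulosa-like cells, at 1045 to 2139 CPM (median 1489) in ob/ob and at 1188 to 2229 CPM (median 1547) in wild type. Every db/db library lay below every library of the other genotypes. The log2 difference between db/db and ob/ob was -3.32 (SE 0.12; adjusted p = 1.112e-42, edgeR), and between ob/ob and wild type it was -0.03. A near copy, BC004004, 98.488% identical over 529 bases, stood at 72 ± 45.5 CPM (SD, n = 26) in db/db and 55.61 ± 31.86 CPM (n = 26) in wild type.

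The other members that differed between the mutants were of the small subunit, with the exception of the stalk base Rplp0. Rps18, in the head of the 40S subunit, stood at 1238 to 4166 CPM (median 2049) in db/db, 3034 to 4689 CPM (median 3776) in ob/ob and 2678 to 6527 CPM (median 4012) in wild type. Its log2 difference, db/db minus ob/ob, was -0.71 (SE 0.09; adjusted p = 1.621e-08, edgeR), and the groups overlapped. Rps28 had -0.59, Rps15a -0.55, Rpsa -0.47 and Rplp0 -0.34, all with adjusted p from 0.0008535 to 0.01133. Rps28 and Rps18 lie on the same chromosome 17 of the reference with 17 genes between them, 11 of these protein coding. Rps15a ran from 582.3 to 2424 CPM in db/db and from 1284 to 2436 CPM in ob/ob, so its db/db libraries were spread widely. With all cells of a somatic library in place of the class, the calls of Rps28, Rps15a, Rpsa and Rplp0 between the mutants were lost and those of Rpl21 and Rps18 were not. Rps15a also lost its call when the counts of its near copies were added.

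Rpl29 rose in both mutants. This small protein of the 60S subunit stood at 205.3 to 471.8 CPM (median 302.3) in wild type granulosa-like cells, at 383.6 to 827.7 CPM (median 612.7) in db/db and at 410.7 to 856.9 CPM (median 653.3) in ob/ob. Rows of 2 near copies, Gm8580 and Gm10548, are 97.358% and 95.783% identical to parts of it, so its value is less certain. The log2 differences from wild type were 0.97 (SE 0.09; adjusted p = 6.123e-14, edgeR) and 1.05 (SE 0.1; adjusted p = 2.866e-14). Rps3a1 (0.44 and 0.55) and Rps13 (0.32 and 0.36) also rose in both, and Rpl11, a 60S protein that also binds Mdm2, rose in db/db (0.31). The falls shared by sign in the 2 mutants were modest. Rps27a, a fusion of ubiquitin and a 40S protein, had -0.78 in db/db and -0.55 in ob/ob, Rpl15 -0.8 and -0.59, and Rpl22l1 -0.71 and -0.64. Rpl35 fell by 0.73 and Rps2 by 0.55 on the log2 scale in db/db. With the library number as a covariate, Rps27a, Rpl15 and Rpl22l1 did not pass in either mutant, nor did Rpl35 and Rpl11 in db/db.

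Some other genes of translation passed in granulosa-like cells, read against the 4.49% of all genes that fell and the 2.45% that rose in db/db. In db/db against wild type 3 of 7 elongation genes, 4 of 28 initiation factors, 1 of 29 assembly genes, Fau of the ribosomal proteins outside the symbol rule and 1 of 10 genes that act on TOP mRNAs (Cnbp) fell and none rose, and of 4 nascent chain chaperones 2 fell and 1, Hspa8, rose. Eif4a1, the helicase that unwinds the start of an mRNA, was also lower in db/db than in ob/ob, at 150.6 ± 91.88 CPM (SD, n = 26) against 517.1 ± 105.4 CPM (SD, n = 24), and stood at 680.2 ± 142.5 CPM (SD, n = 26) in wild type. Its log2 difference between the mutants was -1.78 (adjusted p = 9.134e-16, edgeR), and it was the only gene of the 6 lists to pass between them.

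**Figure D4:**
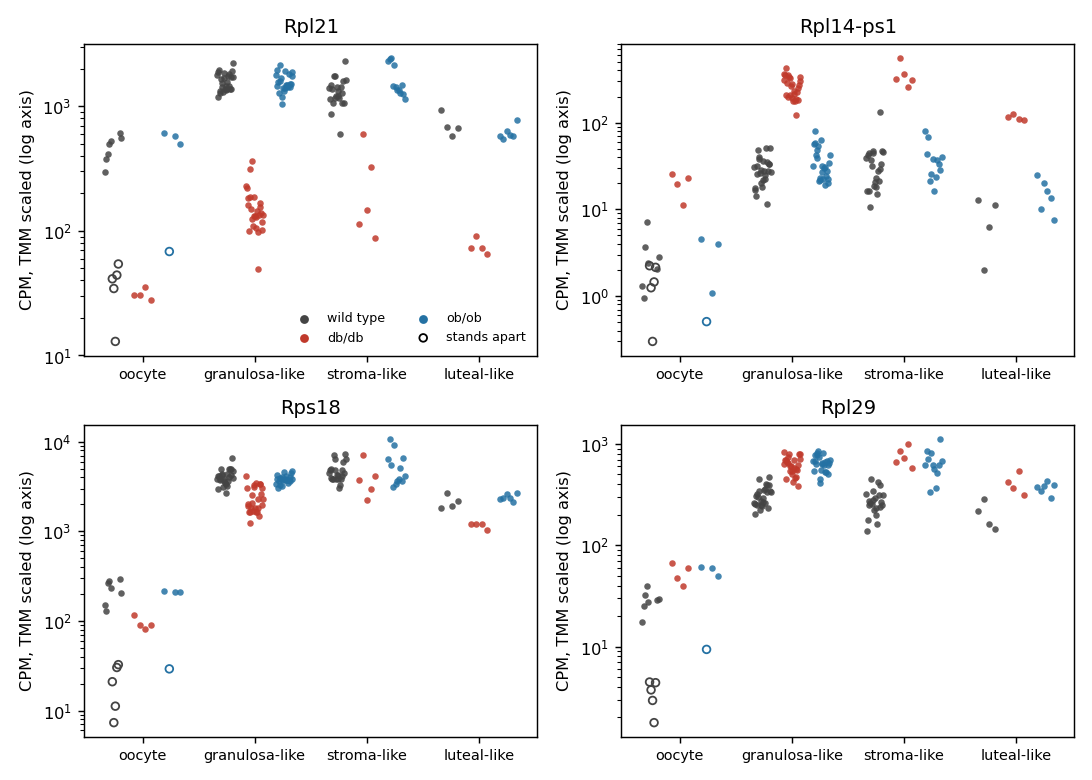
Levels in CPM (vertical axis, log scale) of Rpl21, Rpl14-ps1, Rps18 and Rpl29 in 4 panels, 1 point a library, in oocytes and in granulosa-like, stroma-like and luteal-like cells, coloured by genotype, with open circles for oocyte libraries that stood apart and values at or under 0.3 CPM drawn at 0.3. In granulosa-like cells Rpl21 of db/db lies at 49.25 to 362.6 CPM, below every library of the other genotypes, and Rpl14-ps1 of db/db lies above them.

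In luteal-like cells 3 members passed against wild type in each mutant, and 3 between the mutants, against 0.601%, 1.53% and 0.336% of 11308 genes tested. Rpl21 stood at 72.72, 90.25, 72.57 and 65.8 CPM in db/db, at 573.3, 542.2, 631, 588.1, 575 and 776.9 CPM in ob/ob and at 929.9, 681.4, 579.7 and 672.7 CPM in wild type, again with no overlap. The log2 difference between the mutants was -3.03 (SE 0.19; adjusted p = 1.795e-10, edgeR). Rps18 stood at 1208, 1209, 1211 and 1023 CPM in db/db, below all 6 ob/ob libraries (2107 to 2659 CPM) and all 4 of wild type (1810, 2674, 1912 and 2200 CPM), with a log2 difference between the mutants of -1.04. Rps2 differed by -0.8 between the mutants, a call lost without db/db replicate 11, 12 or 13. Rpl29 had 1.03 in db/db and 0.86 in ob/ob against wild type. The db/db call was lost without db/db replicate 11, 12 or 13 or wild type replicate 21 or 22, and the ob/ob call without wild type replicate 18, 21 or 22. Rps27a (-0.62) and Rpl10 (-0.61) fell in ob/ob, Rps27a losing its call without wild type replicate 18 or 20 and Rpl10 without 20, 21 or 22.

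In stroma-like cells 2 members passed against wild type in db/db, 1 in ob/ob and 1 between the mutants, against 0.605%, 1.06% and 0.496% of 10084 genes tested. The sums in this class were thin, from 262525 to 9379587 UMIs over 39 libraries, and db/db somatic libraries held 73 stroma-like cells in all. Rpl21 stood at 113.6, 602.9, 148.3, 326.8 and 88.45 CPM in the 5 db/db libraries, at 1136 to 2433 CPM (median 1439) in ob/ob and at 598.6 to 2321 CPM (median 1301) in wild type. The library at 602.9 lay just within the wild type range, and the one at 326.8 is among those that held oocyte markers. The log2 difference between the mutants was -2.7 (SE 0.35; adjusted p = 1.031e-06, edgeR). Rpl29 rose by 1.47 in db/db and 1.24 in ob/ob on the log2 scale against wild type. With DESeq2 size factors, which moved the median of all genes from -0.26 to -0.1 in db/db, 13 members rose and 1 fell in db/db against wild type, and 4 rose in ob/ob, so the counts in this class depend on the scaling. The share of all genes under that scaling is not given, so these counts are not read as a result about the members.

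In oocytes no member passed between genotypes when all 20 libraries were used, against 1.11% (db/db and wild type), 0.372% (ob/ob and wild type) and 0.273% (db/db and ob/ob) of 13185 genes tested. At an unadjusted p under 0.05 there were 7, 5 and 4 of 84 members (edgeR), and DESeq2's Wald test called 3, 1 and 3. No share of all genes is given for either set of counts, so neither is read as a result about the members. With all 20 libraries the wild type group joined the 5 that stood apart with 7 others. Without the 6 libraries that stood apart, 16 members fell and 4 rose in db/db against wild type (6.06% and 5.44% of 13473 genes), 7 rose and none fell in ob/ob (2.58% and 2.2%), and 5 fell and none rose in db/db against ob/ob (0.972% and 0.675%).

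These counts rest on 7 libraries of wild type, 4 of db/db and 3 of ob/ob. Most of their cells lay in oocyte clusters 15 and 16, in unlike proportions. The clusters held 107 and 323 cells of wild type, 72 and 103 of db/db and 58 and 108 of ob/ob. Single libraries also differed, with 56 and 24 cells in db/db replicate 2 and 4 and 29 in db/db replicate 3. The fit did not include this mix, and its part in the calls was not tested. Rpl21 stood at 35.78, 35.6, 41.79 and 32.65 CPM in db/db oocytes, at 714.5, 660.9 and 580.2 CPM in ob/ob and at 345.9 to 721.5 CPM (median 579.3) in wild type. The log2 difference between the mutants was -4.16 (SE 0.25; adjusted p = 1.044e-09, edgeR). With all 20 libraries it was -3.81 (adjusted p = 0.2669). In that fit the 5 wild type libraries that stood apart held 41.22, 34.46, 12.97, 44.15 and 54.23 CPM of Rpl21, near the 27.98 to 35.18 CPM of db/db, and the ob/ob library apart held 68.28 CPM. Rpl23, a 60S protein that also binds Mdm2, stood at 90.75, 63.87, 127.4 and 91.81 CPM in db/db, 329.4, 290.7 and 322.2 CPM in ob/ob and 276.9 to 386 CPM in wild type, without overlap, and had -1.75 between the mutants. Rps28 (-1.6), Rps15a (-1.49) and Rps18 (-1.16) fell in db/db against ob/ob as well.

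The rises in ob/ob oocytes were Rpl37rt (1.29), Rps13 (1.2), Rpl29 (0.99), Rps29 (0.86), Rpl37 (0.85), Rps3a1 (0.81) and Rps15a (0.78). Among the rises in db/db oocytes were Rpl37rt (0.93), Rpl29 (0.91) and Rps13 (0.7). Rpl29 stood at 20.37 to 45.95 CPM in the 7 wild type libraries, at 77.26, 55.7, 47.54 and 69.69 CPM in db/db and at 71.98, 68.78 and 57.8 CPM in ob/ob, so each mutant library was above each wild type one. Rps13 stood at 425 to 859.6 CPM in wild type, 862.6 to 1186 CPM in db/db and 1292 to 1568 CPM in ob/ob, also without overlap.

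The oocyte-to-somatic difference itself was compared between genotypes. Its somatic side was whole libraries, and their cell mix differed by genotype. Stroma-like cells made up 26.55% of the somatic cells in wild type, 2.803% in db/db and 4.661% in ob/ob. Luteal-like cells made up 5.718%, 11.9% and 12.57% in the same order. The fit did not adjust for this mix. With all libraries 1 of 86 members passed between db/db and wild type, none between ob/ob and wild type and none between db/db and ob/ob, against 0.639%, 0.361% and 0.071% of genes (edgeR; 14, 33 and 3 members at an unadjusted p under 0.05). The unadjusted counts have no share of all genes beside them and are not read as a result about the members. The member that passed was Rps27, with 3 UMIs in db/db oocytes, none in wild type oocytes, 24 in db/db and 136 in wild type somatic libraries, too few to carry a size, and its call was lost without db/db oocyte replicate 2 or 3. Without the 6, Rpl23 passed between db/db and wild type (-1.72, SE 0.27; adjusted p = 1.805e-05, edgeR) and between db/db and ob/ob (-1.98, SE 0.3; adjusted p = 1.34e-05), and none passed between ob/ob and wild type, against 0.151%, 0.0464% and 0.0638% of genes. In the same fit Rpl23 of db/db stood at 103.1 ± 22.56 CPM (SD, n = 4) in oocytes and 1158 ± 336.1 CPM (n = 30) in somatic libraries. Rpl21, low in both kinds of db/db cell, did not pass in this comparison.

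Near copies of members also separated the genotypes. Rpl14-ps1, a pseudogene row 98.933% identical to Rpl14 over 656 bases, took 10.86% to 16.94% of the pair's UMIs in the 30 db/db somatic libraries, 0.851% to 2.668% in ob/ob and 0.7069% to 2.585% in wild type, with no overlap. In oocytes it took 9.67% to 16.88% in db/db, 0.6998% to 2.456% in ob/ob and 0% to 5.229% in wild type. In granulosa-like cells it stood at 261.6 ± 74.78 CPM (SD, n = 26) in db/db and 36.37 ± 16.28 CPM (n = 24) in ob/ob (log2 difference 2.84), while Rpl14 itself, at 1521 ± 378.2 and 1797 ± 491 CPM, did not pass. BC004004 made up 31.87% ± 11.82 (n = 30) of its pair with Rpl21 in db/db somatic libraries, 5.21% ± 2.781 (n = 31) in ob/ob and 3.825% ± 2.449 (n = 31) in wild type. The copy itself was at 65.08 ± 23.74, 65.66 ± 23.18 and 50.94 ± 25.3 CPM in the same groups.

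Rps15a-ps6 divided the db/db libraries among themselves. It took 0.3265% to 1.361% of its pair with Rps15a in ob/ob somatic libraries and 2.985% to 7.001% in wild type. In db/db 13 libraries were under 3%, 16 at 10% or over, up to 26.54%, and 1 between. Rps15a itself ran from 815.8 to 2613 CPM in the 13 and from 461 to 1509 CPM in the 16. Libraries of db/db and ob/ob alternate in library number, and Rpl21 followed the genotype label through each change. Its mean was 190.6 (n = 10), 116.1 (n = 14), 175.2 (n = 2) and 135.5 CPM (n = 4) in the 4 db/db blocks. In the 4 ob/ob blocks that alternate with them it was 1157 (n = 14), 1502 (n = 11) and 1618 CPM (n = 5), and 774 CPM in the last, a block of 1 library. Reads that match a member and its copy equally well were assigned by a counting rule that is not stated in the labels, and the part of sequence differences between the mice in these rows was not tested.

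**Figure D5:**
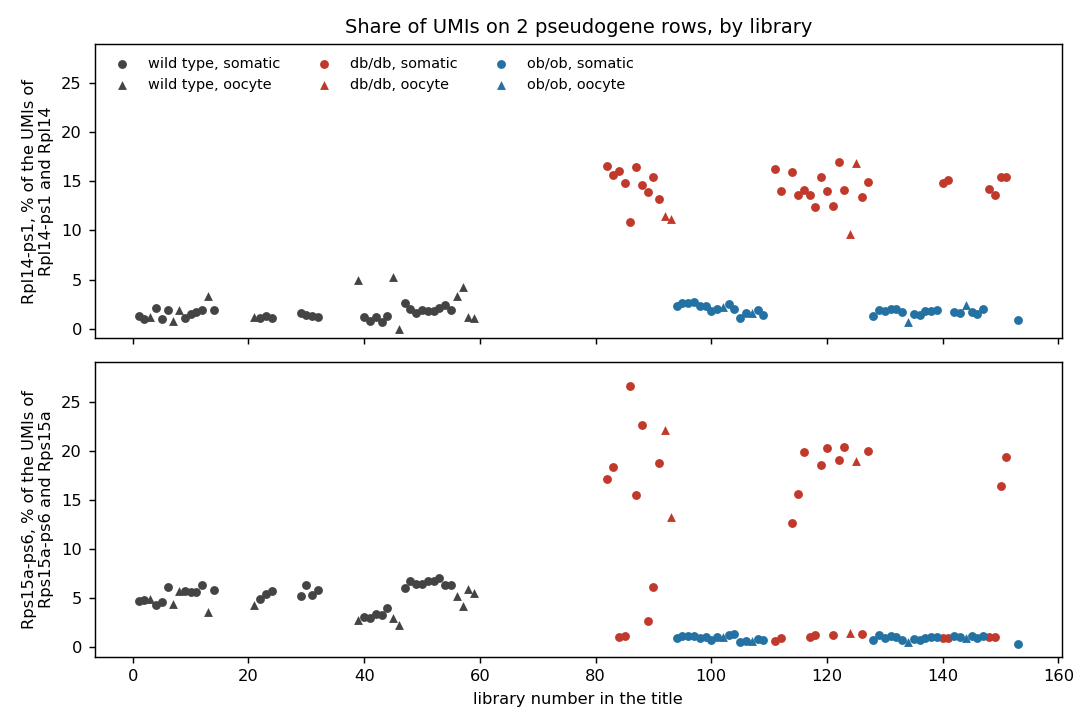
Percent of a pair's UMIs on the pseudogene row (vertical axis) against the library number in the title (horizontal axis), for Rpl14-ps1 above and Rps15a-ps6 below, circles for somatic and triangles for oocyte libraries, coloured by genotype. Among somatic libraries Rpl14-ps1 lies between 10.86% and 16.94% in db/db and at no more than 2.668% in the others, and Rps15a-ps6 is at 10% or over in 16 of the 30 db/db libraries.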

How the data were processed

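The authors deposited UMI counts in a single matrix of genes by cells, without normalization, with reads mapped to mm9 per the submitters' processing notes; the aligner and the treatment of reads that match several rows are not stated in any source at hand. No doublet caller was run. Columns were matched to samples by the library number in the title, and 3254 columns that match no sample were not used. ERCC spike-in rows, 22.367% of the UMIs of kept cells, stayed out of totals. The filter of 1000 genes and 3000 UMIs a cell left 9268 cells. Cells were clustered with scanpy 1.11.5 (2000 variable genes without members and mitochondrial rows, 30 principal components, Leiden resolution 1.5, 26 clusters) and named by marker lists. Counts were summed per library, or per library and class where a library held at least 5 cells of it, at depths of 2017017 to 22488226 UMIs per whole library. Each comparison across all genes used edgeR 4.0.16 (TMM scaling, quasi-likelihood test, all groups of a kind of cell in 1 fit) with Benjamini-Hochberg adjustment over all genes tested and a threshold of 0.05. DESeq2 1.42.0, other filters, scalings and library choices were alternatives. Scripts were tested on simulated data. Genes were named by a rule: in each comparison up to 6 rises and 6 falls of largest size among members that passed and averaged 20 CPM or more in 1 group, then Rpl21, Rpl14, Rps18, Rplp0, Rplp1, Rplp2, Rpsa, the paralog pairs, the -ps rows of named members and listed genes that passed; BC004004, Rpl7l1, Rpl27a, Rpl23, Rps29, Rpl36al and smaller changes were chosen after their values were seen. The members and gene lists were chosen with earlier results of these data known. The alternatives without the somatic libraries that held oocyte markers were added after seeing the data. Near copies were found with blastn 2.17.0 on reference transcripts. Some genes that the naming rule selects are not reported here.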

Additional observations from a re-analysis of the deposited data

Results flagged for a closer look

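In groups of 4 to 10 libraries, 5 of 49 groups examined had a library far from the others, where chance alone gives about 1 in 20 for a single group. The groups share libraries, and several of the 5 concern the ob/ob oocyte library already set apart. The count therefore cannot be read against that rate. The ob/ob oocyte library that stood apart held 0.8072% of its UMIs on the members, against 3.332% to 3.587% in the other 3. In the same library Rpl39l was at 68.69 CPM, against 690.6 to 740.3, and Rps18 at 35.74 CPM, against 271.4 to 314.3, on the scale of the fit that also held the somatic libraries. Rpl14-ps1 was at 14 CPM in db/db oocyte replicate 3, against 28.59 to 31.31 CPM in the other 3 db/db oocyte libraries. Rps18 was at 1023 CPM in luteal-like cells of db/db somatic replicate 14, against 1208 to 1211 CPM in the other 3.

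The difference between oocytes and somatic libraries differed between genotypes for 2 members. For Rps27 the fit gave 5.49 between db/db and wild type, on 3 UMIs in db/db oocytes and none in wild type ones, too few to carry a size, and the call was lost without db/db oocyte replicate 2 or 3 and without the 6 oocyte libraries that stood apart. Without those 6 libraries Rpl23 had -1.72 between db/db and wild type and -1.98 between db/db and ob/ob.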

How the results depend on the processing

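Of 106 pairs of a named member and a comparison that passed, 69 kept direction and call under every alternative run, 37 lost the call under at least 1, and none reversed. Without the 6 oocyte libraries that stood apart, 20 members passed between db/db and wild type oocytes, 7 between ob/ob and wild type and 5 between the mutants, and 1 in the difference of oocyte and somatic libraries between the mutants, also 1 when the somatic libraries with oocyte markers were left out too. DESeq2's Wald test called 3, 1 and 3 members between oocyte genotypes, 2 in the difference between db/db and wild type, 6 for luteal-like db/db cells and 8 for those of ob/ob against wild type, and 12, 5 and 2 in stroma-like cells for db/db and ob/ob against wild type and between the mutants. DESeq2's size factors gave 14 and 4 in stroma-like db/db and ob/ob cells against wild type and 1 in the difference between ob/ob and wild type. With only the groups compared in the fit, 0 passed in the difference between db/db and wild type, 1 in that between the mutants and 1 between the mutants' oocytes, and granulosa-like cells as the somatic side gave 0 between db/db and wild type. In granulosa-like cells the library number as a covariate left 5 (db/db) and 3 (ob/ob), and all cells of a somatic library gave 29 in ob/ob and 2 between the mutants. Leaving mitochondrial UMIs out of the total moved the share in luteal-like db/db cells from 7.104% to 7.319%. Counts under these alternatives are given without the share of all genes that passed. The causes were not tested.

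Only libraries of groups of 5 or fewer were left out 1 at a time, so no library of a larger group, such as the 12 wild type oocyte libraries or the somatic libraries as a whole, was left out alone. This gave, for oocytes against somatic libraries, 70 to 74 members (db/db) and 66 to 71 members (ob/ob). It gave 0 to 1 for the difference between db/db and wild type, 0 to 2 between ob/ob and wild type and 0 to 0 between the mutants. For oocytes it gave 0 to 0 between db/db and wild type, 0 to 1 between ob/ob and wild type and 0 to 0 between the mutants. In luteal-like cells against wild type it gave 2 to 4 (db/db) and 1 to 2 (ob/ob) and 2 to 4 between the mutants, and in stroma-like cells 2 to 2 in db/db and 1 to 1 between the mutants. No paired analysis was possible because the labels give no replicate number that libraries of different groups share.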

Other observations

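Libraries outside the groups compared gave further values. In 2 db/db libraries labelled as holding both oocytes and somatic cells, the members took 7.125% and 7.176% of the UMIs. Of their 96 and 92 cells together, 91 were macrophage-like, 90 luteal-like and 3 oocyte-like, and the db/db somatic libraries ran from 6.655% to 15.73%, with 7.104% ± 0.2123 (SD, n = 4) in luteal-like cells. In 1 oocyte library whose label names both mutant genotypes, they took 0.6071%, within the 0.4486% to 0.8072% of the 6 oocyte libraries that stood apart and below the 2.276% to 3.587% of the other 14. Mitochondrial rows held 5.07% of its UMIs, a value within the ranges of both the 6 (4.831% to 17.56%) and the 14 (1.251% to 5.171%).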
